A study of Felis catus with 6 samples.

Results

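The 8 genes described here, 7 for myosin and troponin chains of the contractile machinery and 1 for a nuclear protein of muscle tissue, were listed in a table of a feline kidney cell line, PETCC2610. They were chosen by symbol from the authors' deposited table of genes that differed between 2 groups of libraries, and they make up 8 of its 633 genes: the myosin chains MYH7, MYL4, MYL6B and MYL7, the troponins TNNC1, TNNI2 and TNNI3, and MUSTN1. The first group, DOX, holds 3 libraries of cells made senescent with an agent that the labels abbreviate as DOX. The second, DOX+PeptideE, holds 3 libraries of cells given the same agent and peptide E, a product of a bacterial fermentation. All groups thus carry the senescence treatment, cells without it were not analysed here, and the labels give no dose and no time. The cells come from 1 line, and its label says kidney without naming a cell type.

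Every gene in the table was called by the authors on these same 6 libraries, where no unadjusted p exceeds 0.0498 and every fold change reaches 1.5 or more in the authors' deposited table. The contrast between DOX+PeptideE and DOX therefore chose these genes. Their differences are given as a description with no test. Read depth per library is not known: values summed over the table came to between 25080 and 39460 in a library, and this is no depth. In bulk libraries, fewer cells that make a transcript and less of it per cell cannot be told apart. The expression value is the authors' normalized value per gene and library, and the header does not say whether it is TPM or FPKM. In the 53 genes listed at 0 in 1 or more libraries, the smallest value above 0 ranged from 0.01 to 1.55 between genes. Such a value can come from more than 1 read, so it does not give the least amount that could be recorded. That transcript length was divided out is not stated, and each comparison of levels between genes below holds only on such a scale.

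Striated muscle contracts through the sarcomere, in which myosin filaments pull on actin filaments. A myosin molecule has heavy chains, which hold the motor, and 2 kinds of light chain at each neck, an essential and a regulatory one. The troponin complex sits on the actin filament: troponin C binds calcium, troponin I blocks the motor when calcium is low, and troponin T ties the complex to tropomyosin. Epithelial cells of the kidney rely instead on non-muscle myosin, with its own heavy and light chains.

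The 8 genes covered a wide range of levels, and the order of their mean expression values is a description of these libraries. With DOX the order was MYL7 at 158, MYL6B at 85.7, TNNC1 at 28.4, MUSTN1 at 16.7, MYL4 at 6.73, TNNI2 at 3.29, TNNI3 at 2.68 and MYH7 at 0.13. Neighbours in this order had separate ranges in the 3 DOX libraries, except TNNI2 and TNNI3, whose ranges overlapped. With peptide E the ranges of MYL7 and MYL6B overlapped too, at means of 70.1 and 65.4, and TNNI3 and TNNI2 stood at 1.40 and 1.37 with overlapping ranges. MYL7, MYL6B and TNNC1 were well expressed, with both group means at 10 or more. MUSTN1, MYL4, TNNI2 and TNNI3 lay between, and MYH7 was near 0, with a mean under 1 in both groups. MYL7 had the 29th highest DOX mean of the 633 listed genes and MYL6B the 44th, against the 583rd for MYH7.

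**Figure D1:**
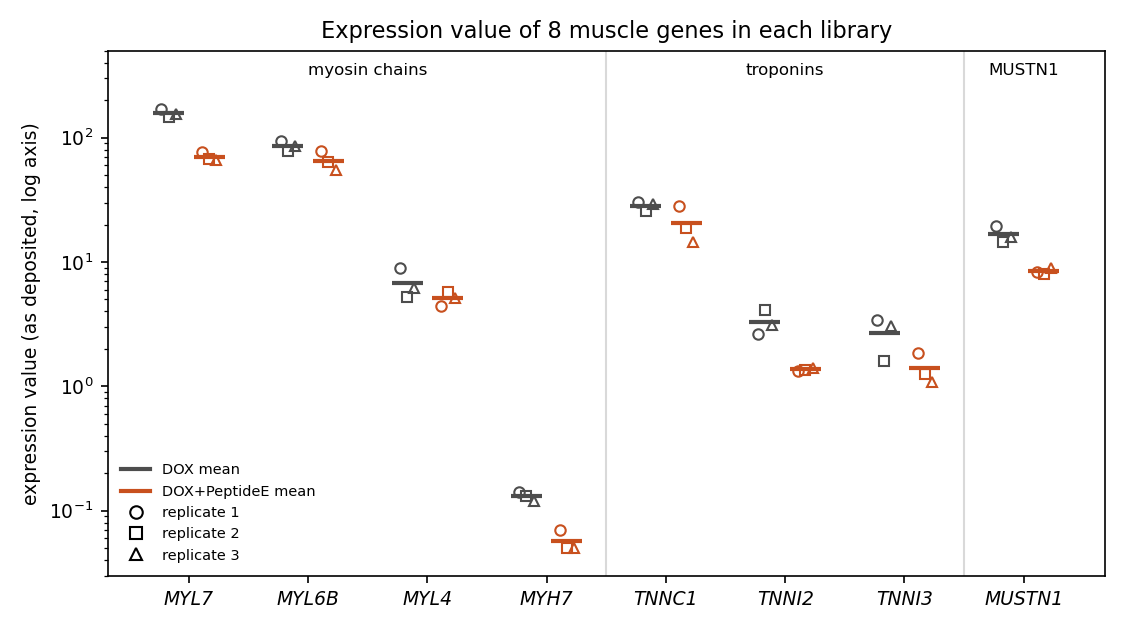
Expression value of each gene (log axis) in the 3 DOX libraries (grey) and the 3 DOX+PeptideE libraries (orange). Symbols mark the replicate number and bars the group mean. The means run from 158 (MYL7, DOX) down to 0.0567 (MYH7, DOX+PeptideE), and the groups stand apart in MYL7, MYH7, TNNI2 and MUSTN1.

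Among the myosin chains, MYL7 was both the highest in level and, of the well expressed genes, the one with the largest difference. MYL7 encodes the regulatory light chain of atrial heart muscle. Its expression value was 170.8, 147.65 and 155.38 in DOX replicates 1 to 3 and 76.06, 67.71 and 66.4 in the peptide E replicates. All peptide E libraries lay below all DOX libraries, and the spread within each group was small. The means were 158 ± 11.8 with DOX and 70.1 ± 5.24 with peptide E (SD, n = 3 each), so the peptide E mean was 44.4% of the DOX mean. The limma log2 difference, peptide E minus DOX on the log2(value + 1) scale, was -1.16 with a standard error of 0.14.

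MYL6B encodes an essential light chain that occurs in slow skeletal muscle and also in non-muscle cells. Its values were 93.21, 77.61 and 86.28 with DOX and 78.31, 63.45 and 54.53 with peptide E. Peptide E replicate 1 lay just above DOX replicate 2, so the groups overlapped. The means were 85.7 ± 7.82 and 65.4 ± 12.0 (SD, n = 3 each), and the limma log2 difference was -0.40 with a standard error of 0.17.

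MYL4, the essential light chain of atrial and embryonic muscle, was far below MYL7, its partner on the atrial heavy chain. Its values were 8.88, 5.19 and 6.13 with DOX and 4.42, 5.78 and 5.14 with peptide E. DOX replicate 1 stood above the other 5 libraries, and peptide E replicate 2 exceeded DOX replicate 2. The means were 6.73 ± 1.92 and 5.11 ± 0.680 (SD, n = 3 each), with a limma log2 difference of -0.32 and a standard error of 0.20. Without DOX replicate 1 the log2 difference of MYL4 was -0.13.

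MYH7, the only heavy chain listed, encodes the slow skeletal and ventricular motor. Its values were 0.14, 0.13 and 0.12 with DOX and 0.07, 0.05 and 0.05 with peptide E. The groups did not overlap, but the table has 2 decimals, so a value of 0.05 carries a rounding error that is not small beside it. The peptide E mean was 43.6% of the DOX mean, close to the share in MYL7, at a far lower level. On the log2(value + 1) scale the limma log2 difference was only -0.097 with a standard error of 0.039, because the values are far below 1. No filter was used for this, since MYH7 did not pass the filter, which asks for 1 or more as the mean of either group. Its neighbour in the RefSeq annotation is MYH6, a closely similar heavy chain gene, and reads of 1 can be assigned to the other, so this value is uncertain.

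Of the troponins, TNNC1, the calcium-binding subunit of slow skeletal and cardiac muscle, was the highest. Its values were 30.32, 25.75 and 29.27 with DOX and 28.08, 18.88 and 14.61 with peptide E. Peptide E replicate 1 was within the DOX range, and replicate 3 was the lowest of all 6 libraries. The means were 28.4 ± 2.39 and 20.5 ± 6.88 (SD, n = 3 each), and the limma log2 difference was -0.50 with a standard error of 0.21. The coefficient of variation of TNNC1 was 33.5% with peptide E against 8.42% with DOX. Without peptide E replicate 1 the log2 difference of TNNC1 was -0.74, and without replicate 3 it was -0.29.

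TNNI2, the inhibitory subunit of fast skeletal muscle, was at 2.64, 4.11 and 3.13 with DOX and at 1.33, 1.36 and 1.41 with peptide E. The 3 peptide E values were almost equal, and each lay below every DOX value. The means were 3.29 ± 0.748 and 1.37 ± 0.0404 (SD, n = 3 each), so the peptide E mean was 41.5% of the DOX mean. On the log2(value + 1) scale the difference was -0.85 with a standard error of 0.18, which understates the log2 ratio of the means, -1.27, because the values are low.

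TNNI3 encodes the cardiac inhibitory subunit. Its values were 3.39, 1.59 and 3.05 with DOX and 1.86, 1.26 and 1.08 with peptide E. DOX replicate 2 lay inside the peptide E range, and the other DOX libraries lay above it. The means were 2.68 ± 0.956 and 1.40 ± 0.408 (SD, n = 3 each), and the limma log2 difference was -0.59 with a standard error of 0.22.

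MUSTN1 encodes a small nuclear protein of muscle and skeletal tissue and is no part of the sarcomere. Its values were 19.59, 14.45 and 15.95 with DOX and 8.3, 8.05 and 8.9 with peptide E. The groups stood well apart, with the lowest DOX library at 14.45 and the highest peptide E library at 8.9. The means were 16.7 ± 2.64 and 8.42 ± 0.437 (SD, n = 3 each), and the limma log2 difference was -0.90 with a standard error of 0.17.

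The authors' deposited table places all 8 genes lower with peptide E, and 53.7% of all listed genes are lower there. The smallest change among the 8 was that of MYL6B, just inside the authors' limit of 1.5, at a 1.53-fold lower value in the authors' deposited table. The largest was that of MYH7, 2.79-fold lower, followed by TNNI2 at 2.77 and MYL7 at 2.70 in the authors' deposited table. The authors' adjusted p was 5.24e-18 for MYL7, 0.000352 for MUSTN1, 0.0088 for MYL6B and 0.0441 for TNNC1, and under 0.05 with a lower value for 24.2% of the genes in the authors' deposited table. It was 0.142 for MYL4, and listed as 1 for TNNI2, TNNI3 and MYH7, as for 25.3% of the genes in the authors' deposited table. This 1 can stand for a missing value, since TNNI2 had a smaller unadjusted p than MYL4, 0.0123 against 0.0309 in the authors' deposited table. The unadjusted p of TNNI3 was 0.0408, of MYH7 0.0384 and of TNNI2 0.0123 in the authors' deposited table. All 8 genes, like every listed gene, had an unadjusted p under 0.05, and these 3 and MYL4 had no adjusted p under 0.05.

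The groups did not overlap in MYL7, MYH7, TNNI2 and MUSTN1, that is in 4 of the 8, and 32.7% of all listed genes were lower without overlap and 76.1% had no overlap in either direction. The other 4 genes, MYL6B, MYL4, TNNC1 and TNNI3, overlapped. In each of these 4, DOX replicate 2 was the lowest DOX library and lay below 1 of the peptide E libraries. That library was replicate 1 for MYL6B, TNNC1 and TNNI3 and replicate 2 for MYL4. Without DOX replicate 2, all 8 genes were lower without overlap, as were 45.7% of the listed genes, and without peptide E replicate 1 it was 7 of the 8 against 42.7%. DOX replicate 2 was the lowest of its group in 6 of the 8 genes but the highest in TNNI2, and peptide E replicate 1 was the highest of its group in 5 but the lowest in TNNI2 and MYL4.

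Over all genes listed lower, the median departure from the DOX mean, in log2 units, was -0.10 in DOX replicate 2, against 0.06 and 0.03 in the other DOX libraries. Peptide E replicate 1 stood at -0.35, replicate 2 at -0.43 and replicate 3 at -0.51, and over the genes listed higher these libraries stood at 0.39, 0.79 and 1.02. The peptide E libraries were thus spaced over both sets, and replicate 1 was the one nearest to the DOX mean. MYL6B stood at -0.13 in peptide E replicate 1 and at -0.65 in replicate 3, and TNNC1 at -0.02 and -0.96. MYL7 lay between -1.25 and -1.05, TNNI2 between -1.31 and -1.22, and MUSTN1 between -1.05 and -0.91 in the peptide E libraries. The part of these library differences in the values of single genes was not tested.

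**Figure D2:**
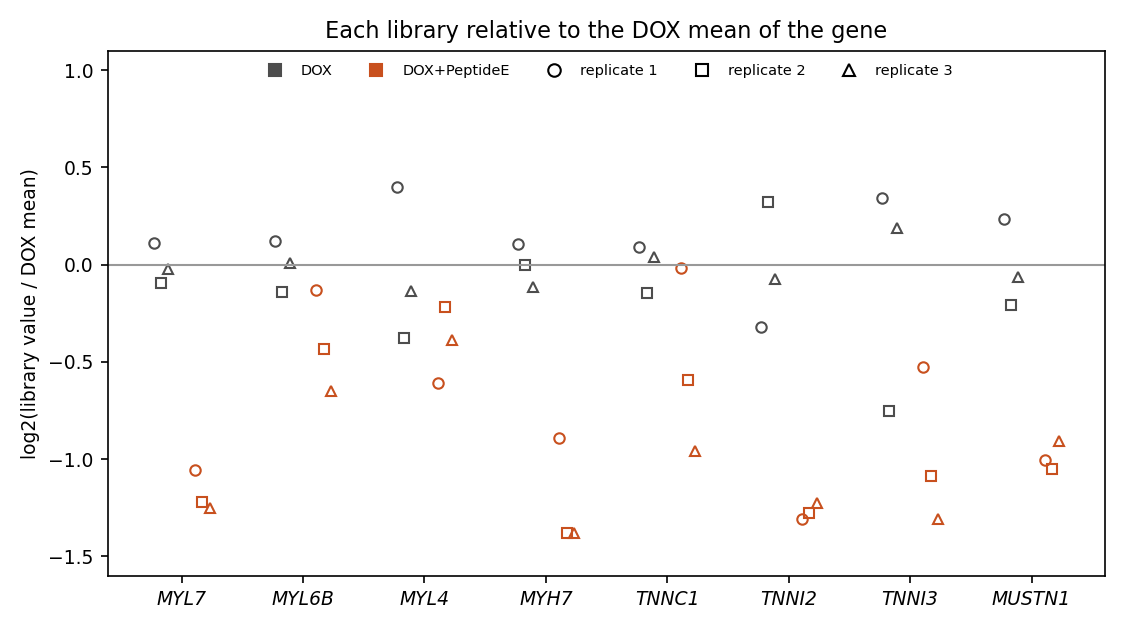
log2 ratio of each library's expression value to the DOX mean of the same gene, for DOX (grey) and DOX+PeptideE (orange) libraries, with symbols for the replicate number. The peptide E libraries of MYL7, TNNI2 and MUSTN1 lie close together near or below -0.9, while those of TNNC1 spread from -0.02 to -0.96.

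The differences also depend on the scale. For the 196 genes whose group means both reach 5, the median gap between the log2 ratio of deposited means and the log2 value of the fold change in the authors' deposited table was 0.27, the ratio of means being the higher. In the 8 muscle genes this gap was 0.20 (TNNI2) to 0.28 (MYH7). After the peptide E libraries were rescaled by this offset, the limma log2 difference was -1.42 for MYL7, -1.13 for MUSTN1, -0.99 for TNNI2, -0.75 for TNNC1, -0.74 for TNNI3, -0.66 for MYL6B and -0.54 for MYL4. On that scale all 8 genes were lower without overlap, as were 47.1% of the listed genes, and with each library centred on its median it was 6 of the 8 and 49.4% of the listed genes. This offset comes from the fold changes on which the genes had been selected. The median log2 difference of the 7 genes in the fit was -0.59 as deposited, against -0.22 over all 499 listed genes in the fit and -0.41 over the 257 of these that were listed lower.

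Where the 8 genes lie among listed genes depends on their level. Of the listed genes whose group means both reach 10, 80.2% were listed lower and 47.3% were lower without overlap, as was MYL7 but not MYL6B or TNNC1. The 105 genes listed lower there had a median log2 ratio of means of -0.41. MYL6B at -0.39 and TNNC1 at -0.47 lay near that median, at positions 61 and 38 counted from the lowest ratio. MYL7, at -1.17, had the lowest ratio of these 105 genes, and the next was GKN1, a gastrokine gene, at -0.83. That rank depends on asking for both means, since a gene that is below 10 with peptide E is left out. Of the 123 genes listed lower whose DOX mean alone reaches 10, HBA1, a globin gene, had the lowest ratio at -1.25, MYL7 the next and MUSTN1 the third at -0.98. Of the 75 genes whose peptide E mean was at most 50% of the DOX mean, 11.8% of the table, 3 were MYL7, TNNI2 and MYH7, and MUSTN1 lay just outside at 50.5%. In the range that holds MUSTN1, MYL4, TNNI2 and TNNI3, 41.3% of listed genes were lower. Among listed genes with both means under 1, 61.9% were listed lower with a median log2 ratio of -1.41, and MYH7 had -1.20.

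**Figure D3:**
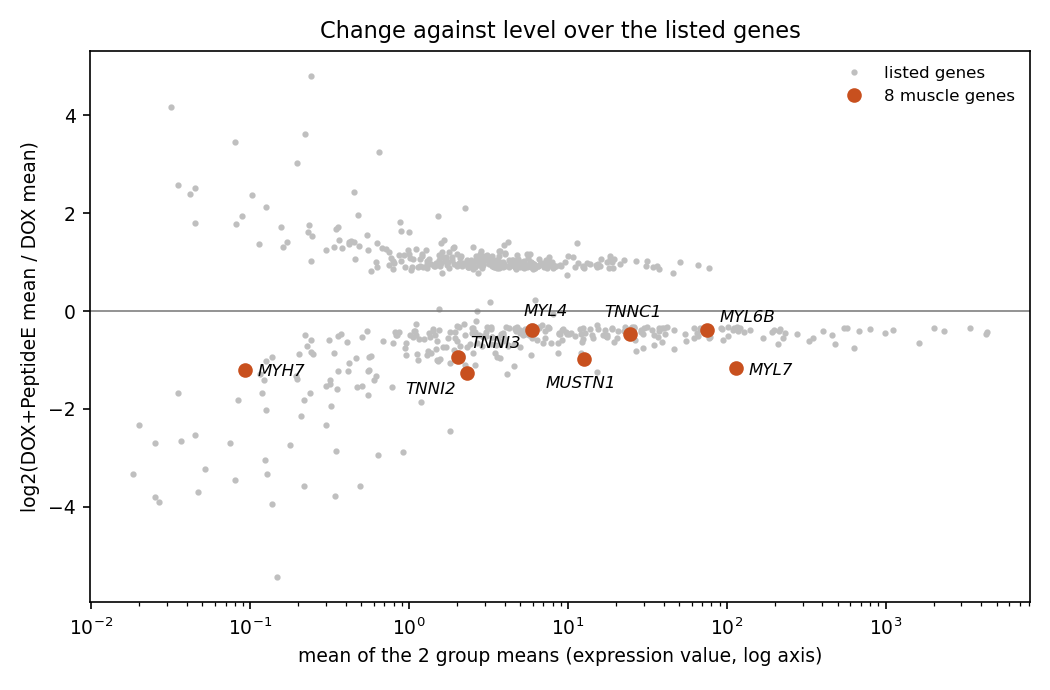
log2 ratio of the DOX+PeptideE mean to the DOX mean against the mean of both groups (log axis) for the 612 listed genes with values above 0 in both groups (grey), with the 8 muscle genes in orange. The sparse band around 0 goes with the authors' limit on fold change, and MYL7, at -1.17, has the lowest ratio of the listed genes whose group means both reach 10.

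Ratios of genes within a library do not change when a whole library is rescaled. The ratio of MYL7 to MYL6B was 1.83, 1.90 and 1.80 in the DOX libraries and 0.971, 1.07 and 1.22 in the peptide E libraries. The ranges were separate, so the regulatory light chain was lower relative to this essential light chain in each peptide E library. The ratio of MYL7 to TNNC1 was 5.56 ± 0.222 with DOX and 3.61 ± 0.918 with peptide E (SD, n = 3 each), also without overlap. MYL7 made up 51.9% to 53.4% of the summed value of the 8 genes with DOX and 38.3% to 43.7% with peptide E. The sum itself was 276.5 to 329.0 with DOX and 152.1 to 198.4 with peptide E. The sum over all listed genes was also lower, at 34270 to 39460 with DOX and 25080 to 33460 with peptide E. Of that sum the 8 genes made up 0.7584% to 0.8452% with DOX and 0.5901% to 0.6065% with peptide E.

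MUSTN1 stood to MYL6B at 0.194 ± 0.0142 with DOX and at 0.132 ± 0.029 with peptide E (SD, n = 3 each), with separate ranges. The ratio of MYL7 to MUSTN1 was 9.56 ± 0.766 and 8.34 ± 0.853 (SD, n = 3 each), and its ranges overlapped. The ratio of TNNC1 to MYL6B was 0.332 ± 0.00698 and 0.308 ± 0.0462, and that of MYL4 to MYL6B 0.0777 ± 0.0153 and 0.0806 ± 0.021 (SD, n = 3 each), both with overlap. TNNI2 over TNNI3, the fast against the cardiac inhibitory subunit, was 0.779, 2.58 and 1.03 with DOX and 0.715, 1.08 and 1.31 with peptide E. DOX replicate 2, with the high ratio, held the highest TNNI2 and the lowest TNNI3 of the DOX libraries.

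**Figure D4:**
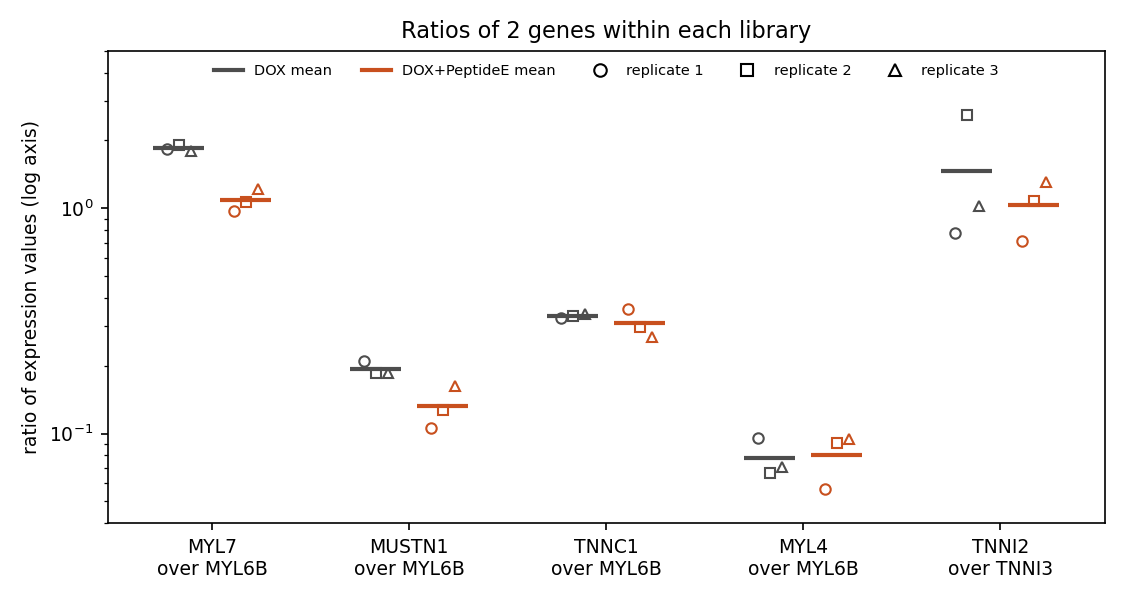
Ratio of the expression values of 2 genes within each library (log axis), for DOX (grey) and DOX+PeptideE (orange), with bars at the group means. The groups are separate for MYL7 over MYL6B and MUSTN1 over MYL6B and overlap for the other 3 ratios.

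Other muscle genes were looked up by symbol. The table holds only genes that the authors called, so absence from it says nothing about expression. The share of all genes that were listed is not known here, so the counts of listed symbols below have no background. Of 60 further symbols for sarcomere and striated muscle structure, 1 was in the table, XIRP1, which encodes an actin-binding protein of muscle cell junctions. It was at 0.02, 0.06 and 0.07 with DOX and listed at 0, 0 and 0.01 with peptide E, a level near 0 in both groups. Of 25 symbols for muscle calcium handling and metabolism, 2 were listed, both lower, as were 53.7% of all listed genes. FABP3, the fatty acid-binding protein of heart, had means of 12.1 ± 1.11 (DOX) and 8.81 ± 0.73 (peptide E) (SD, n = 3 each), without overlap. Lower without overlap were 32.7% of all listed genes. COX7A1, the muscle form of a cytochrome c oxidase subunit, was at 158 ± 9.46 and 121 ± 31.0 (SD, n = 3 each), with overlap. Of 26 muscle transcription factors and cofactors, 1 was listed. MRTFB, a cofactor of serum response factor, was higher with peptide E, at 2.38 ± 0.286 and 4.83 ± 1.61 (SD, n = 3 each), without overlap. No overlap in either direction was seen in 76.1% of all listed genes. The 32 symbols for smooth muscle and non-muscle actomyosin gave no listed gene. The remaining symbols of the lists were not analysed here.

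Other genes with known roles in muscle were named after their values were seen, among them SGCA, POPDC3, LRRC39, MSTN and CMYA5, and no full search for such genes was made. SGCA, the alpha subunit of the sarcoglycan complex in the muscle cell membrane, had means of 3.40 ± 0.522 (DOX) and 2.40 ± 0.193 (peptide E) (SD, n = 3 each), without overlap. POPDC3, a membrane protein gene of striated muscle, was at 6.24 ± 0.46 and 3.74 ± 0.709 (SD, n = 3 each), also without overlap. Of all listed genes, 32.7% were lower without overlap. LRRC39, which encodes a protein of the sarcomere's M-band, was at 0.49, 0.49 and 0.35 with DOX and at 0.33, 0.04 and 0.09 with peptide E. MSTN, which encodes the muscle growth inhibitor myostatin, was at 0.08, 0.09 and 0.11 with DOX and at 0, 0 and 0.03 with peptide E. CMYA5, a muscle anchoring protein gene, was at or below 0.02 in all 6 libraries.

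Defining markers of muscle cells were looked for in the table. The lists of skeletal muscle cell, cardiomyocyte and of smooth muscle and myofibroblast markers, with 10, 10 and 12 symbols, had no listed member, and the expression of these markers was not analysed here. Of 18 tubular epithelial symbols, 5 were listed, KRT18, KRT7, KRT19, AQP1 and HAVCR1, all with a lower mean with peptide E, as for 53.7% of the table. HAVCR1, a marker of tubular injury, overlapped between the groups, with a limma log2 difference of -0.16 and a standard error of 0.18. The other 4 were lower without overlap, as were 32.7% of all listed genes and 60.9% of the genes listed lower. The summed value of the 5 was 863.9 to 1100 with DOX and 580.2 to 783.1 with peptide E. Nearly all of it came from KRT18 and KRT7, with DOX means of 588.8 and 414.6. AQP1, KRT19 and HAVCR1 were low, with DOX means of 2.98, 2.6 and 1.21. KRT18, a keratin of simple epithelia, was at 589 ± 70.3 with DOX (SD, n = 3), above every one of the 8 muscle genes. The part of these epithelial markers in the values of the muscle genes was not tested.

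By position in the RefSeq annotation, the 8 genes are no cluster. TNNC1 and MUSTN1 lie on the same chromosome with 12 protein-coding genes between them, none of which was listed. Of the genes next to the 8, the cardiac heavy chain gene MYH6 beside MYH7, the troponin T gene TNNT1 beside TNNI3 and the light chain gene MYL6 beside MYL6B were not listed. Whether reads of MYL6 were assigned to MYL6B was not examined. The 1 neighbour in the table was SYT8, a synaptotagmin gene beside TNNI2, at 5.76 ± 1.31 with DOX and 4.23 ± 0.342 with peptide E (SD, n = 3 each), with overlap. The sources used here do not say if counting used strand.

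The likeness of other genes to MYL7, the member of highest mean, was taken as Pearson's r of log2(value + 1) over the 6 libraries, as a description. The points share 2 groups and the library differences above, so a high r largely repeats the group contrast. Outside the 8 genes the highest were HCFC1R1 (r = 0.99), KRT15, a basal keratin gene, MEGF6, NMB, the neuromedin B gene, and GPX3, a secreted glutathione peroxidase gene, the last with r = 0.98. Among the 8, MUSTN1 had r = 0.98, TNNI2 0.90, MYL6B 0.84, TNNI3 0.81, TNNC1 0.76 and MYL4 0.62. With group means subtracted, which leaves the differences between replicates, MYL6B had r = 0.91, TNNI3 0.87, TNNC1 0.82, MUSTN1 0.61 and MYL4 0.40, while TNNI2 had -0.73. Many genes ranked above them: among the genes in the fit MYL6B was 23rd, TNNI3 41st, TNNC1 59th, MUSTN1 110th, MYL4 142nd and TNNI2 397th. On that measure the highest outside the 8 were SFN, QPRT, MACROD1, DNLZ and IGFBP6, with r from 0.978 to 0.997.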

How the data were processed

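PolyA RNA-seq libraries were made from PETCC2610 cells, 3 per group. Their titles number the replicates and do not say if each was a separate culture. Libraries were grouped by their titles. Reads were checked with FastQC 0.11.9 and handled with fastp 0.19.5, both per the submitters' processing notes, and the table's name refers to RSEM and DESeq. The aligner, the build and the annotation were not given in the sources used here. Deposited library columns hold a normalized expression signal. The authors also deposited a fold change (a ratio), its log2 value, and unadjusted and adjusted p-values. Values were used as deposited. Differences and standard errors came from limma 3.58.1 in R 4.3.3 on log2(value + 1), with a trend of variance on mean, over the 499 listed genes whose higher group mean reached 1. For MYH7 no filter was used. The script was tested on simulated data. No p-value was computed, because the same contrast chose the genes. The rule named the 8 genes, every listed gene of the muscle lists and the 5 genes most like the member of highest mean by either measure. The members and lists were chosen with earlier results of these data known. A RefSeq table (assembly F.catus_Fca126_mat1.0), which held all 633 symbols, was used for gene neighbours only. Alternatives were other pseudocounts, no filter, rescaling, median-centring, a replicate block and leaving out each library. No sequences are shown.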

Additional observations from a re-analysis of the deposited data

How the results depend on the processing

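All 8 genes were lower with peptide E as deposited, as were 53.7% of the listed genes. They were also lower without each library in turn, where the share of listed genes was not computed. The count was also 8 after rescaling and after centring each library on its median. Both steps shift every gene further down with peptide E, and centring used listed genes only, so neither could have given a smaller count. The number lower without overlap was 4 as deposited (32.7% of all listed genes), 8 after rescaling by the offset (47.1%) and 6 after centring (49.4%). With 1 library left out the number was 4 to 8, and leaving out a library cannot add overlap to any gene. It was 8 without DOX replicate 2 (45.7%) and 7 without peptide E replicate 1 (42.7%), and the share was not computed for the other libraries. The median log2 difference of the 7 genes in the fit was -0.59. It was -0.85 with a pseudocount of 0.1, -0.38 with a pseudocount of 5 and -0.89 after centring, where the median of all listed genes was -0.30, -0.08 and -0.51. Without a library it was -0.74 to -0.45, where the median of all listed genes was -0.2 to -0.105. A larger pseudocount shrinks the difference of low genes by construction, as in TNNI2 (-1.19 at 0.1, -0.38 at 5).

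Replicate numbers are shared by the 2 groups, but same-numbered libraries did not deviate together in every pair. The correlation of their deviations over 499 genes was 0.34 for replicate 1, -0.04 for replicate 2 and -0.09 for replicate 3. Between unlike-numbered libraries it ran from -0.29 (DOX replicate 2, peptide E replicate 1) to 0.36 (DOX replicate 2, peptide E replicate 3). With the replicate block the median difference remained at -0.59 by construction, and the standard error of MYL7 was 0.17 rather than 0.14. Depth is unknown, and the 2 decimals of the table limit MYH7.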
